A study of Mus musculus with 7 samples.

Results

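The 7 genes Cftr, Slc4a2, Slc12a2, Aqp1, Sctr, Atp1b1 and Ggt1 encode channels, transporters, a hormone receptor and an ectoenzyme of bile secretion. They were taken by symbol from the 24552 genes of a count table, and all 7 were rows of it. The table holds 3′-end RNA sequencing counts (QuantSeq FWD) of cholangiocytes, which line the bile ducts, isolated by EpCAM from Foxp3GFPDTR mouse liver. Every animal ate DDC, a chemical that injures the ducts, for 10 days. In the DT group (3 libraries) diphtheria toxin at 1 µg/kg was injected into the peritoneum every 48 h, and in the PBS group (4 libraries) saline was injected instead. Foxp3, the marker of regulatory T cells, drives the toxin receptor in this strain, so the comparison asks how duct epithelium under injury differs when these T cells are targeted, and here whether its secretory genes differ. There was no group without DDC. Ages and sexes are not given in the labels. Nothing in them ties a library to its own mouse, so p-values cover the variation among the libraries, part of which may be technical.

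Cholangiocytes turn the bile made by hepatocytes more watery and alkaline. The hormone secretin binds Sctr, a receptor that raises cyclic AMP. Cyclic AMP opens Cftr, the apical chloride channel, and chloride that leaves through it is exchanged for bicarbonate by Slc4a2 (anion exchanger AE2). The sodium pump, of which Atp1b1 is a beta subunit, keeps sodium low in the cell, and the cotransporter Slc12a2 (NKCC1) uses that gradient to load chloride. Water follows through Aqp1 (aquaporin 1). Ggt1, gamma-glutamyltransferase, splits glutathione at the apical surface. In bulk RNA, fewer cells of a type and less RNA per cell cannot be told apart.

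Total counts ran from 5683824 to 6285624 in DT libraries and from 4805018 to 5499832 in PBS libraries, and genes with a count above 0 ran from 5419 to 7920 in DT and from 5967 to 8361 in PBS. The summed level of 12 cholangiocyte markers was 23060 to 28470 CPM (read counts scaled to a common library size with TMM factors) in DT and 21250 to 26510 CPM in PBS. The summed level of 15 hepatocyte markers was 3704 to 5377 CPM in DT and 2245 to 3841 CPM in PBS, with Cps1, Ass1 and Cyp3a11 at 0 in all 7 libraries. Reads of 4 Y-linked genes were present in DT 1, DT 2, DT 3 and PBS 1 and were 0 in PBS 2, PBS 3 and PBS 4. Xist is transcribed from the inactive X. It had 453, 0 and 0 counts in DT 1 to 3, and 630, 12089, 17627 and 10420 counts in PBS 1 to 4. PBS 1 and DT 1 thus held reads of both kinds. Each had the fewest detected genes of its group, 5419 in DT 1 and 5967 in PBS 1. All comparisons of DT with PBS carry this difference in Y-linked and Xist reads.

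The 7 genes fell into 3 classes by how well they were read. Atp1b1, Cftr and Slc12a2 had counts in all 7 libraries, with totals of 48454, 10618 and 10829 counts. Slc4a2, Aqp1 and Sctr had counts in 5, 3 and 2 libraries, with totals of 1055, 1388 and 503 counts. Ggt1 had 0 counts in every library. Of the 7 genes, 5 passed the filter on low counts and were tested, and Sctr and Ggt1 were not. None was called higher or lower in DT, while over all 7688 tested genes 3 (0.039%) were called, all lower (edgeR quasi-likelihood test, Benjamini-Hochberg adjusted p below 0.05). None of the 5 was below 0.05 by edgeR before adjustment, and none was called by DESeq2 or limma-voom. DESeq2 gave no adjusted p for Aqp1 and so could not call it. At that rate a count of 0 among 5 tested genes says little about these genes.

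Atp1b1, the beta subunit that carries the sodium pump to the membrane, lay mostly higher in DT, without passing the test. It had 1259, 1725 and 1518 CPM in DT 1 to 3, and 1039.8, 1234, 1271 and 1046 CPM in PBS 1 to 4. DT 2 and DT 3 lay above every PBS library, and DT 1 lay just below PBS 3, so that the groups overlapped by that 1 library. The mean was 1501 ± 234 CPM in DT (SD, n = 3) and 1148 ± 122 CPM in PBS (SD, n = 4), which is 0.39 in log2 fold change (SE 0.26, 95% interval -0.13 to 0.91, adjusted p = 1.00 by edgeR). The interval includes no change as well as a 1.88-fold higher level. Its spread was narrow, with a coefficient of variation of 15.6% in DT and 10.6% in PBS, against medians of 29.9% and 31.9% over the 733 tested genes whose log2 CPM averaged 8 or more. Those genes were not matched to Atp1b1 in level, and spread depends on level.

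Slc12a2, the chloride-loading cotransporter, was lower in DT by its mean but did not pass the test. It had 69.3, 282 and 225 CPM in DT 1 to 3, and 242, 519, 456 and 304 CPM in PBS 1 to 4. DT 1 was far below the rest, DT 2 lay above PBS 1, and the groups overlapped. The mean was 192 ± 110.2 CPM in DT (SD, n = 3) and 380.4 ± 129 CPM in PBS (SD, n = 4), which is -0.99 in log2 fold change (SE 0.51, 95% interval -2.02 to 0.05, adjusted p = 1.00 by edgeR). Without DT 1 the log2 fold change was -0.61, and with a covariate for Y-linked reads it was -0.33 (edgeR adjusted p = 0.990, and 0.422 to 1.00 over all alternatives). The 4 libraries with Y-linked reads had 69.3 to 282 CPM of Slc12a2 and the 3 without had 304 to 519 CPM, so that these did not overlap. In the same split Cftr (177 to 398 against 200.4 to 399 CPM) and Atp1b1 (1039.8 to 1725 against 1046 to 1271 CPM) overlapped. The share of all tested genes without overlap in this split was not counted. All DT libraries held Y-linked reads, and in PBS only 1 did, so DT and Y-linked reads can be told apart through PBS 1 alone.

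Cftr, the cyclic AMP-gated chloride channel, had nearly the same mean in both groups. It had 281, 177 and 398 CPM in DT 1 to 3, and 326, 399, 200.4 and 208 CPM in PBS 1 to 4. High and low libraries occurred in each group, and the ranges of the groups almost coincided. The mean was 285 ± 111 CPM in DT (SD, n = 3) and 283 ± 96.0 CPM in PBS (SD, n = 4), which is 0.01 in log2 fold change (SE 0.49, 95% interval -0.99 to 1.01, adjusted p = 1.00 by edgeR). The sign turned under 8 of the 9 alternatives that did not leave out 1 library, with values between -0.19 and 0.09. The interval leaves room for a level 0.504 to 2.01 times that in PBS.

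**Figure D1:**
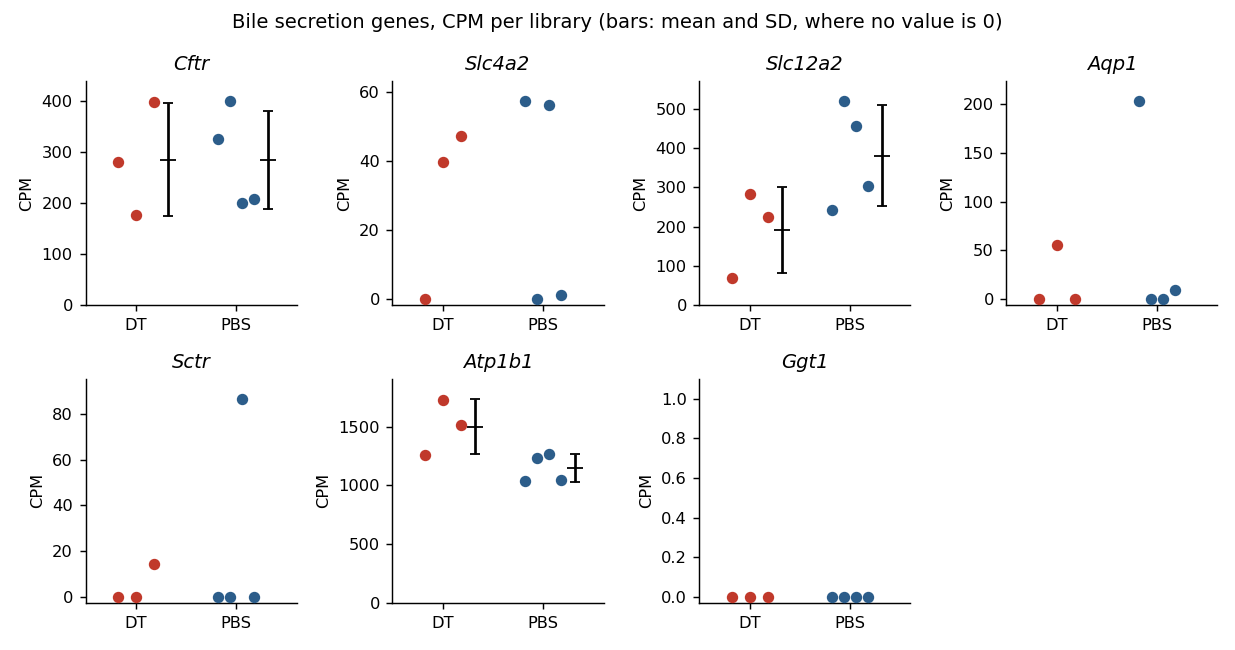
CPM (TMM-scaled) of each of the 7 genes in every library, DT (red, n = 3) and PBS (blue, n = 4), with replicates in order from left to right and black bars for mean and SD where no library was at 0. Atp1b1 was at 1259 to 1725 CPM in DT and 1039.8 to 1271 CPM in PBS, Slc12a2 and Cftr overlapped between the groups, and the other 4 genes had libraries at 0.

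Slc4a2, the chloride-bicarbonate exchanger, had 0, 212 and 268 counts in DT 1 to 3, and 296, 0, 273 and 6 counts in PBS 1 to 4. Each group thus held libraries with more than 200 counts and at least 1 library with none. Its log2 fold change was 0.02 with an interval from -6.00 to 6.03 (SE 2.98, edgeR adjusted p = 1.00), which sets no useful limit, and it was 3.02 by limma-voom and -0.98 with the covariate for Y-linked reads. In the GRCm38 gene models, another build than that of the counts, Slc4a2 overlaps the opposite-strand gene Fastk, and Atp1b1 overlaps the opposite-strand gene Nme7. The labels and the table do not say whether reads were counted by strand. Fastk had 917 counts and Nme7 485 counts in all 7 libraries together.

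Aqp1, the water channel, had 0, 294 and 0 counts in DT 1 to 3, and 1046, 0, 0 and 48 counts in PBS 1 to 4. Its counts came mainly from PBS 1, and 2 libraries of each group had none. The log2 fold change was -1.53 (SE 3.03, 95% interval -7.64 to 4.58, edgeR adjusted p = 1.00). It was 3.11 without PBS 1 and DT 1 together, -11.14 without DT 2, and near 0 by limma-voom (0.037) and with the replicate number as a block (-0.036), so that neither its size nor its sign was stable. The value without DT 2 does not measure the size of a change, because DT 1 and DT 3 had 0 counts. Endothelial cells and red blood cells also make Aqp1. PBS 1, the library with the most Aqp1, had 0 counts over 12 endothelial markers, which together had 8 to 1026 counts in DT libraries and 0 to 244 counts in PBS libraries, with Lyve1, Clec4g, Tek, Vwf and Emcn at 0 in all 7 libraries. The 8 red blood cell markers had 0 counts in every library. Zeros were common at low counts in these libraries, so these values do not show whether such cells were present. The source of the Aqp1 counts was not tested. Aqp3, Aqp4, Aqp5, Aqp8 and Aqp11, the other water channels looked at, were at 0 in all 7 libraries.

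Sctr, the secretin receptor, had 0, 0 and 82 counts in DT 1 to 3, and 0, 0, 421 and 0 counts in PBS 1 to 4. It was read in replicate 3 of each group and in no other library. Ggt1, the glutathione-splitting enzyme, had 0 counts in all 7 libraries. By counting error alone, 0 counts allow up to 3 counts per library, or 0.498 to 0.563 CPM in DT and 0.582 to 0.618 CPM in PBS. The true limit is higher, because zeros in these libraries were far more common than counting error gives.

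Zeros were common for all genes at these depths. Of the library values of 1648 genes with a mean of 50 to 100 counts over the 7 libraries, 58% were 0, and of those of 2022 genes with a mean of 100 to 200 counts, 39.1% were 0. Sctr, with a mean of 71.9 counts, and Slc4a2 and Aqp1, with means of 151 and 198 counts, lie in these intervals. Of 630 genes with a mean of 1000 to 2000 counts, where Cftr (1517) and Slc12a2 (1547) lie, 16 had a library at 0. A count of 0 for Slc4a2, Aqp1 or Sctr in 1 library is therefore frequent at that depth and does not show that the gene was off.

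**Figure D2:**
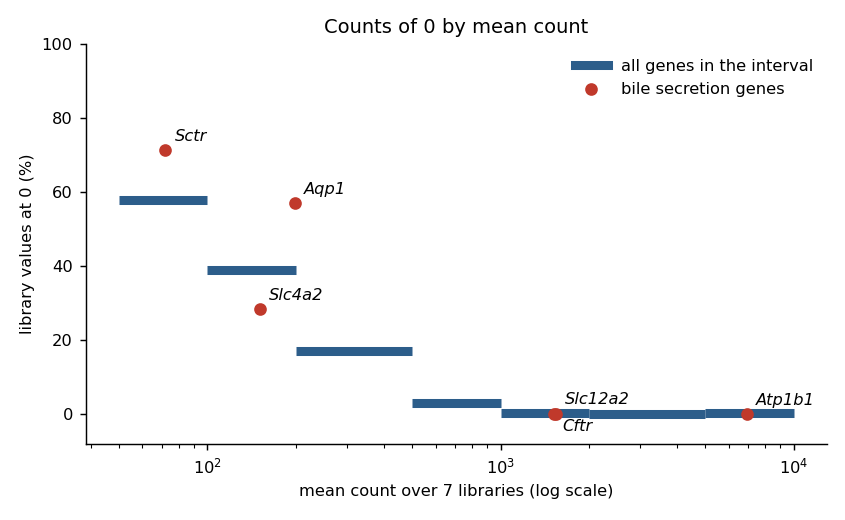
Share of library values at 0 (%) against the mean count over 7 libraries (log scale), with blue bars for all genes of an interval and red points for the bile secretion genes with any count. The share was 58% at a mean of 50 to 100 counts and 39.1% at 100 to 200 counts, and Cftr, Slc12a2 and Atp1b1 had no library at 0.

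The 3 genes read in every library did not move together. Over the 7 libraries, Pearson's r between log2 CPM values was -0.07 for Cftr and Slc12a2, -0.16 for Cftr and Atp1b1, and -0.03 for Slc12a2 and Atp1b1, as a description of few libraries that share 2 groups. Among the other 732 genes of this level, those most like Slc12a2 were Sbno1, Eif3c and Wdr1 (r = 0.95, 0.95 and 0.94), each lowest in DT 1. Those most like Cftr were Rrbp1, Neurl3 and Med13 (r = 0.89, 0.89 and 0.86), and those most like Atp1b1 were Rps12, Ptp4a2 and Taldo1 (r = 0.92, 0.92 and 0.87). The highest r among 732 genes over 7 libraries is large even for unrelated genes, so these values do not show shared control. Rps12, a ribosomal protein gene, had 1238, 1877 and 1702 CPM in DT 1 to 3, and 958, 1003, 1109 and 1071 CPM in PBS 1 to 4.

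A wider list of 80 genes of duct secretion was examined beside the 7. In it, 44 genes were tested, 25 had 0 counts in all 7 libraries, and none was called higher or lower in DT by edgeR, DESeq2 or limma-voom. Of the 44, 17 had positive and 27 negative log2 fold changes, with a median of -0.13, against 3793 positive, 3895 negative and a median of -0.02 over all 7688 tested genes. The median of the list turned to 0.29 by limma-voom, 0.054 with the covariate for Y-linked reads and 0.045 without PBS 1 and DT 1, so its sign was not stable. The median over all tested genes moved in these fits too, to 0.21, 0.67 and 0.063 in the same order. The groups did not overlap, with DT above PBS, for 4 of the 44, against 3.73% of all tested genes, and no gene of the list lay wholly below PBS, against 2.58%. Of 12 genes of the list whose log2 CPM averaged 8 or more, 3 lay wholly above PBS, against 7.37% of the 733 genes of that level, and none wholly below, against 5.59%.

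**Figure D3:**
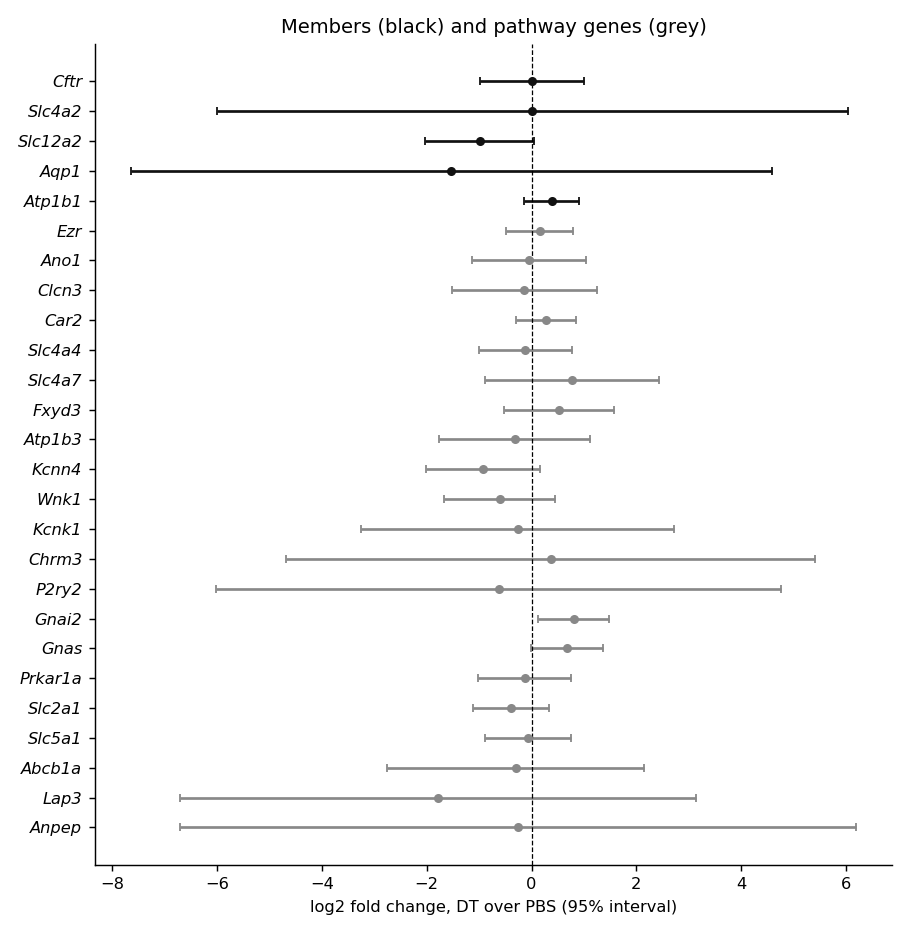
Log2 fold change of DT over PBS with its 95% interval for the 5 tested members (black) and for named genes of the wider list (grey). All intervals shown but that of Gnai2 include 0, and those of Slc4a2, Aqp1, Chrm3, P2ry2 and Anpep span more than 10 log2 units.

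Among the other sodium pump genes, Fxyd3, a small regulator of the pump, had 475, 218 and 225 CPM in DT 1 to 3, and 161, 159, 221 and 309 CPM in PBS 1 to 4. DT 1 was the highest library, and the groups overlapped. The log2 fold change was 0.53 for Fxyd3 and -0.32 for the beta subunit gene Atp1b3 (SE 0.52 and 0.71, edgeR adjusted p = 1.00 each). Atp1b2 and Fxyd2 were at 0 in all 7 libraries.

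In cyclic AMP and calcium signalling, 12 of 15 genes were tested, 7 with positive and 5 with negative values, and none was called. Gnai2, the G protein alpha subunit that inhibits adenylyl cyclase, had 892, 825 and 839 CPM in DT 1 to 3, and 353, 338, 642 and 617 CPM in PBS 1 to 4. Gnas, the alpha subunit that stimulates adenylyl cyclase and so lies directly downstream of the secretin receptor, had 729, 678 and 909 CPM in DT 1 to 3, and 489.5, 285, 616 and 546 CPM in PBS 1 to 4. For these subunits of opposite effect every DT library lay above every PBS library. The same held for 7.37% of the 733 tested genes whose log2 CPM averaged 8 or more, and for 3.73% of all tested genes. The log2 fold changes were 0.81 for Gnai2 (SE 0.34, 95% interval 0.13 to 1.48) and 0.67 for Gnas (SE 0.34, 95% interval -0.02 to 1.36), with an edgeR adjusted p of 1.00 for each. Adcy9, an adenylyl cyclase named after its values were seen, also had no overlap, with 780, 636 and 421 counts in DT 1 to 3, and 352, 0, 0 and 205 counts in PBS 1 to 4. Prkar1a, a regulatory subunit of protein kinase A, had a log2 fold change of -0.13 (SE 0.44). The summed hepatocyte markers were also higher in DT by their means, with overlap between the groups. The summed level of 12 macrophage and monocyte markers was 1525 to 2294 CPM in DT and 974.6 to 2504 CPM in PBS. The part of hepatocytes or macrophages in these differences was not tested.

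**Figure D4:**
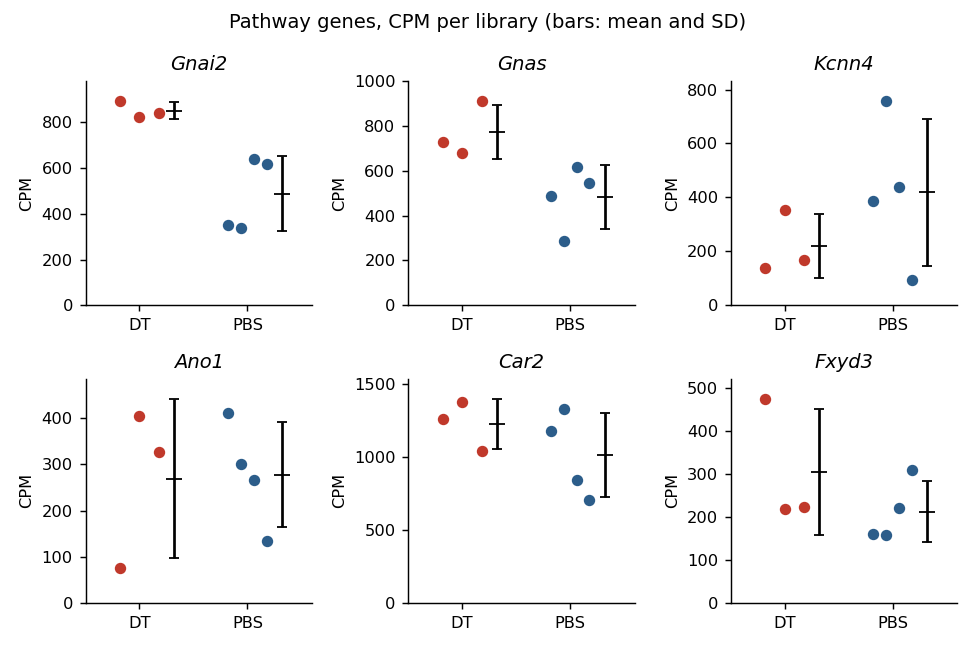
CPM (TMM-scaled) per library of 6 genes of the wider list, DT (red, n = 3) and PBS (blue, n = 4), with black bars for mean and SD. Gnai2 and Gnas had every DT library above every PBS library, as had 7.37% of the 733 tested genes whose log2 CPM averaged 8 or more. Kcnn4, Ano1, Car2 and Fxyd3 overlapped.

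In chloride exit, Ano1, the calcium-activated chloride channel, had 75.8, 405 and 327 CPM in DT 1 to 3, and 410.5, 299.9, 266 and 134 CPM in PBS 1 to 4. The groups overlapped, and its log2 fold change was -0.04 (SE 0.54, edgeR adjusted p = 1.00). Ezr, which anchors apical membrane proteins to actin, had 0.15, and the CLC family gene Clcn3 had -0.14 (SE 0.32 and 0.69). Clcn2, a chloride channel gene named after its values were seen, had 0 counts in each DT library, and 14, 0, 548 and 195 counts in PBS 1 to 4. It and Gnai2 were the 2 genes of the 44 below 0.05 before adjustment of p, against 269 of 7688 over all tested genes. Clcn2 passed the filter on low counts through PBS libraries alone. Its p sets counts against 0 and is no support for a difference.

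In bicarbonate and proton transport, 4 of 12 genes were tested. Car2, the carbonic anhydrase that makes bicarbonate in the cytosol, averaged 1227 ± 170.1 CPM in DT (SD, n = 3) and 1013 ± 290.5 CPM in PBS (SD, n = 4), which is 0.28 in log2 fold change (SE 0.28, adjusted p = 1.00 by edgeR). The sodium-bicarbonate cotransporter genes Slc4a4 and Slc4a7 had -0.12 and 0.77 (SE 0.44 and 0.83), and that of Slc4a7 was 0.033 without DT 2. Slc26a6, another chloride-bicarbonate exchanger, and the sodium-proton exchangers Slc9a2 and Slc9a3 were at 0 in all 7 libraries. None of the log2 fold changes of Car2, Slc4a4 and Slc4a7 exceeded its SE in size.

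Among potassium channels and chloride cotransport, 8 of 10 genes were tested, 2 with positive and 6 with negative values. Kcnn4, a calcium-activated potassium channel that lets potassium leave the cell, had 137, 355 and 167 CPM in DT 1 to 3, and 386, 756, 439 and 92.0 CPM in PBS 1 to 4. PBS 4 was the lowest of all libraries and the other 3 PBS libraries were the highest. Its log2 fold change was -0.93 (SE 0.53, 95% interval -2.02 to 0.16, edgeR adjusted p = 1.00). Wnk1, a kinase upstream of Slc12a2, had -0.61, and the potassium channel gene Kcnk1 had -0.27 (SE 0.52 and 1.48). Wnk1 was at -1.25 without DT 3, -0.20 without DT 2 and 0.47 with the covariate for Y-linked reads.

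All 7 tested carriers of bile acids, sugars and organic anions had negative log2 fold changes, with a median of -0.30, and none was called. Those not named below had SEs of 2.19 to 3.26, and Abcb1a and Slc5a1 changed sign under some alternatives, so the shared sign says little. The glucose transporter gene Slc2a1 averaged 457 ± 142 CPM in DT and 598 ± 93.9 CPM in PBS (log2 fold change -0.39, SE 0.36), and Slc5a1, the sodium-glucose cotransporter, averaged 421 ± 108 CPM in DT and 443 ± 200.02 CPM in PBS (-0.07, SE 0.41). Abcb1a, an export pump gene, had -0.30 (SE 1.22). Slc51a and Slc51b, which form the basolateral bile acid exporter, were at 0 in all 7 libraries. Of 8 receptors besides Sctr, 2 were tested. The muscarinic receptor gene Chrm3 had a log2 fold change of 0.36 and the nucleotide receptor gene P2ry2 had -0.62 (SE 2.50 and 2.67), and the bile acid receptor Gpbar1 and the somatostatin receptor Sstr2 were at 0 in all 7 libraries. Beside Ggt1, the aminopeptidase genes Lap3 and Anpep were tested (log2 fold change -1.78 and -0.26, SE 2.44 and 3.20), and Ggt5 and Ggt7 were at 0 in all 7 libraries. Lap3 was at -5.51 without DT 3 and -0.82 without PBS 1. Its counts were 0, 18 and 365 in DT 1 to 3, so the value without DT 3 does not measure the size of a change. Each gene named in this paragraph with a fold change had an edgeR adjusted p of 1.00.

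**Figure D5:**
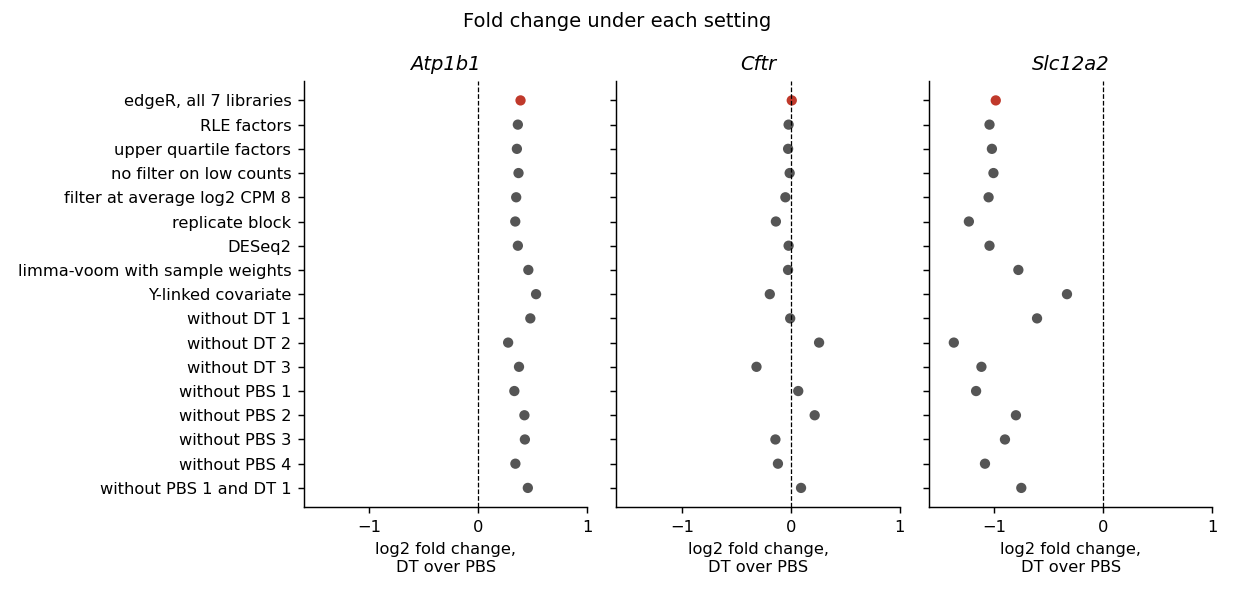
Log2 fold change of DT over PBS for Atp1b1, Cftr and Slc12a2 under each processing alternative, with the edgeR result on all 7 libraries in red. Atp1b1 stayed between 0.27 and 0.53, Cftr lay on either side of 0, and Slc12a2 stayed between -1.37 and -0.33.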

How the data were processed

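Libraries were made from 100 ng of total RNA with the QuantSeq FWD kit, per the labels' protocols. The deposited values are the authors' raw counts of reads for each gene symbol. The submitters' processing notes name mm9 as the build. The labels and the file header do not say how reads were aligned and counted, with which annotation, or whether molecular identifiers were used. Floors cover counting error only. Titles gave each library its group and number.

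After TMM scaling, 7688 genes passed filterByExpr (edgeR 4.0.16, R 4.3.3), with 97.5% of the counts. All were fitted together and DT set against PBS with edgeR's robust quasi-likelihood test (two-sided, Benjamini-Hochberg adjusted, threshold 0.05). An SE is the fold change over the root of its F value, and a 95% interval also uses the degrees of freedom of the fit. Correlations used log2 CPM with a prior count of 2.

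The 7 genes and the 80 of the wider list were chosen with earlier results of these data known. Named from the list were, in each role, the 3 tested genes with the highest mean CPM, and any gene past the threshold. Of these, 1 gene was kept in all fits and counts but its values are not reported here. The alternatives were other scaling factors (RLE, upper quartile), no filter or only genes averaging 8 or more in log2 CPM, the replicate block, DESeq2 1.42.0 on the filtered genes, limma-voom (limma 3.58.1) with sample weights, a covariate for Y-linked reads, and omission of each library. Omission of PBS 1 and DT 1 together was chosen after seeing the data.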

Additional observations from a re-analysis of the deposited data

Results flagged for a closer look

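Aqp1 in PBS 1 stood apart from the other PBS libraries. Its 203 CPM compared with 9.48 CPM in the next PBS library, a gap of 0.953 of the range of the group. Sctr in PBS 3 stood apart in the same way, at 86.7 CPM with the other PBS libraries at 0, a gap of 1 times the range. With 3 of 4 libraries at 0, any count in the other gives that gap, so for Sctr the criterion adds nothing to the counts. Of 28 genes examined by Dixon's criterion for 4 libraries, 2 were past its limit, and chance flags about 1 in 20 groups, a rate that does not hold for genes with libraries at 0. Groups of 3 libraries, such as DT, were not examined.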

How the results depend on the processing

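No member and no gene of the wider list was called under any of the 16 alternatives. Over all tested genes, 0 were higher and 3 lower in DT. These counts became 1 and 7 without a filter, 6 and 6 under the replicate block, 29 and 82 by DESeq2, and 6 and 6 by limma-voom. The Y-linked covariate gave 23 higher, and the filter at 8 gave 5 lower. Omitting 1 library gave 0 to 1 higher (1 without DT 1) and 1 to 4 lower (1 without PBS 1 or PBS 2). The replicate numbers mark no known shared source. Deviations of same-numbered libraries correlated at -0.060 to 0.025, 0 of 3 pairs were over 0.1, and 1 DT library of 3 correlated best with its own number.

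Atp1b1 and Slc12a2 kept their direction in all 16, at 0.27 to 0.53 and -1.37 to -0.33, and had 0.34 and -1.23 under the replicate block. Cftr turned to -0.020 (RLE and DESeq2), -0.025 (upper quartile and limma-voom), -0.011 (no filter), -0.050 (filter at 8), -0.14 (replicate block) and -0.19 (Y-linked covariate), and ranged over -0.32 to 0.26 on omission of 1 library. Slc4a2 turned to -0.11 (RLE and DESeq2), -0.037 (upper quartile), -0.012 (no filter), -0.25 (replicate block) and -0.98 (Y-linked covariate), had 3.02 by limma-voom and 1.19 without PBS 1 and DT 1, and ranged over -0.53 to 0.58 on omission of 1 library. Aqp1 turned to 0.037 (limma-voom) and 3.11 (without PBS 1 and DT 1), had -0.036 under the replicate block and -3.46 with the Y-linked covariate, ranged over -11.14 to -0.94 on omission of 1 library, and was not tested without PBS 1, without PBS 4 or under the filter at 8. By DESeq2 Aqp1 had a fold change but no adjusted p.

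Of 342 values of the named list genes, 39 changed sign. By limma-voom these were Ano1 (0.34), Clcn3 (0.63), Kcnk1 (2.05), P2ry2 (3.21), Abcb1a (0.92) and Anpep (0.89). Under the replicate block they were Clcn3 (0.48), Kcnk1 (0.98) and Prkar1a (0.041), and with the Y-linked covariate Wnk1 (0.47), P2ry2 (10.44), Prkar1a (0.45) and Slc5a1 (0.021). Without PBS 1 and DT 1 they were Ano1 (0.65), Clcn3 (0.52), Fxyd3 (-0.052), Atp1b3 (0.045), Chrm3 (-0.62), Abcb1a (0.92) and Anpep (0.95). Omission of 1 library gave ranges across 0 for Ano1 (-0.46 to 0.38), Clcn3 (-0.50 to 0.35), Slc4a4 (-0.35 to 0.049), Atp1b3 (-0.83 to 0.050), Kcnk1 (-0.68 to 0.26), Chrm3 (-0.22 to 1.48), P2ry2 (-1.17 to 1.35), Prkar1a (-0.29 to 0.053), Slc5a1 (-0.28 to 0.26), Abcb1a (-0.97 to 0.40) and Anpep (-1.34 to 0.34). Without a change of sign, Slc4a7 ranged over 0.033 (without DT 2) to 1.15, Lap3 over -5.51 (without DT 3) to -0.82 (without PBS 1) and Wnk1 over -1.25 (without DT 3) to -0.20. Lap3 was -0.21 without PBS 1 and DT 1, and -4.14 under the replicate block. With the Y-linked covariate Clcn3 was -1.05, Kcnk1 -1.22, Chrm3 11.10, Abcb1a -1.41 and Anpep -1.30, the replicate block gave 0.98 for Chrm3 and -0.95 for Anpep, and P2ry2 was -1.55 without PBS 1 and DT 1. The median of the wider list, -0.13, turned to 0.29 (limma-voom), 0.054 (Y-linked covariate) and 0.045 (without PBS 1 and DT 1). Over all tested genes the median was 0.21, 0.67 and 0.063 in these fits. Aqp1 had 0 counts in DT 1 and DT 3, the DT libraries left without DT 2. Chrm3 and P2ry2 had 0 counts in PBS 1, the only PBS library with Y-linked reads. The values -11.14 for Aqp1, 11.10 for Chrm3 and 10.44 for P2ry2 thus set counts against 0 and do not measure the size of a change. Nor does -5.51 for Lap3, which had 0 and 18 counts in DT 1 and DT 2, the DT libraries left without DT 3. Why the other values moved, apart from fewer libraries in some fits, was not tested. Zeros limit what can be seen, and at a mean of 200 to 500 counts 72.3% of genes still had a library at 0.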
